A study of Mus musculus with 19 samples.

Results

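The genes described here are 41 interferon-stimulated genes of the mouse, chosen by name from the 53656 gene names that each table lists. Of these, 35 are targets shared by type I interferon responses and 6 (Irf1, Gbp2, Gbp3, Igtp, Irgm1 and Irgm2) are best known as targets of type II interferon. They were followed in 19 RNA libraries of CD8 T cells from C57BL/6 mice, all carrying a transgenic T cell receptor. The receptor of SV40-I cells is specific for SV40 large T antigen, and that of OT-I cells for an ovalbumin peptide. The ex vivo groups held 3 libraries each: naive SV40-I cells (CD44low), late SV40-I cells (Thy1.1) and late OT-I cells (Ly5.1) from malignant liver lesions at days 20 to 21, and lesion SV40-I cells of days 8 to 9, sorted as PD1hi/LAG3hi/CD39hi (marker-high) or PD1lo/LAG3lo/CD39lo (marker-low). The cultured groups held 2 libraries each: SV40-I cells activated through CD3 and CD28, transduced with a retrovirus for TOX-GFP or for GFP alone, expanded in IL-2 and sorted as GFP+. There was no group of naive OT-I cells, so the OT-I lesion cells were set against naive cells of the other receptor, and receptor, congenic marker and antigen cannot be told apart in any comparison that involves them. The labels give no genotype, but the table headings carry WT in the marker-high and KO in the marker-low libraries, so gate and genotype cannot be told apart there. Titles place the lesion cells in liver lesions while another label field calls all of them splenocytes, and the labels do not state whether replicates were separate mice or cultures. The p-values therefore rest on spread that may be technical.

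Interferons are secreted proteins that tell cells of infection or of T cell activity. Type I interferons act through a receptor of Ifnar1 and Ifnar2 and the kinases Jak1 and Tyk2, and a complex that includes STAT2 and IRF9 binds the interferon-stimulated response element (ISRE). Type II interferon (Ifng), made by T and NK cells themselves, acts through Ifngr1 and Ifngr2 and leads to binding at the gamma-activated site (GAS). In T cells these programmes include sensors and effectors that block viral RNA and the guanylate-binding and immunity-related GTPases that act on intracellular pathogens.

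Promoter sequence was examined first, because both elements can be read directly from it. RefSeq windows on GRCm38.p6, from 250 bases before to 50 bases after the start, were found for 33 of the 41 members (40 windows). The ISRE core, spelled as GAAA, any 2 bases and GAAA and searched on both strands, was in 19 of these windows (47.5%), against 3.44% of all 32851 windows of the same length. It was in 14 of 32 windows of type I members (43.75%) and 5 of 8 windows of type II members (62.5%). The GAS letters TTCNNNGAA were in 10 of 40 member windows (25%) and in 8.30% of all windows. A match describes letters, not a bound site. The stretches below were chosen because they belong to genes on which the results turn. They are printed 5′ to 3′ in the direction of the gene, with matches in capitals. The matches of Ifit3, Isg15, Oas3 and Gbp2 are ISRE cores (those of Isg15 overlap each other), Igtp and Irgm2 have a GAS followed by an ISRE core that does not overlap it, and the match of Irf1 is a GAS.
Ifit3, chr19:34583343-34583446, plus strand: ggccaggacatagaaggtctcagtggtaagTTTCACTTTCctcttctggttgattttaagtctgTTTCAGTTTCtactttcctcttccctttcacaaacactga
Isg15, chr4:156200845-156200926, minus strand: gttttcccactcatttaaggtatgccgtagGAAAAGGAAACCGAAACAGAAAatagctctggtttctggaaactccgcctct
Oas3, chr5:120777695-120777764, minus strand: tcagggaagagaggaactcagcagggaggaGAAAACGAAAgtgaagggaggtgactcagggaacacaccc
Gbp2, chr3:142620574-142620643, plus strand: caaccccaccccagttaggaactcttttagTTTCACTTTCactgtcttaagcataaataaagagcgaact
Igtp, chr11:58199481-58199555, plus strand: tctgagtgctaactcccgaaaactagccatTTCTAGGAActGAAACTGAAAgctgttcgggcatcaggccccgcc
Irgm2, chr11:58214872-58214952, plus strand: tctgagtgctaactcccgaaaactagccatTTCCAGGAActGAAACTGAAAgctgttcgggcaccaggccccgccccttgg
Irf1, chr11:53769894-53769962, plus strand: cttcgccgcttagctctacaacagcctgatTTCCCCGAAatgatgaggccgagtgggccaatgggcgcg
The 104-base stretch of Ifit3 occurs letter for letter in the window of its neighbour Ifit3b, where the matches lie 188 and 154 bases before the start against 156 and 122 bases in Ifit3. The full windows of Ifit3 and Ifit3b are 75.88% identical over 340 aligned columns, and those of Igtp and Irgm2 72.84% over 335.

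Levels are given as CPM, the count of a gene scaled to a common library total, with the standard deviation between libraries as the error. Totals ran from 37006508 to 54195918 counts, so a gene with no count in a library can stand at up to 3 counts, or 0.0554 to 0.0811 CPM. Intervals and floors cover counting error only, since amplified reads without molecular identifiers are not independent molecules. The T cell identity genes (Cd3e, Cd8a, Trac and 5 others) summed to 11079 to 30935 CPM in the ex vivo libraries, lowest in marker-low library 2, and to 7107 to 9645 CPM in culture. The sums were 29028 to 30015 CPM in late SV40-I and 16789 to 18751 CPM in late OT-I. Of these genes Cd3d, Cd8b1 and Cd2 were lower in late SV40-I than in late OT-I libraries. The part of this difference in the results was not tested. Transcripts of other cells were also present: the 8 macrophage and Kupffer cell genes summed to 3982 to 5757 CPM in marker-high, 730 to 8631 in marker-low (highest in library 2) and 53.4 to 1056 in the other ex vivo libraries. The 8 hepatocyte genes summed to 1220 CPM in late SV40-I library 2 and to 819 and 1374 in late OT-I libraries 2 and 3, and to between 2.84 and 40.3 in the other ex vivo libraries. The 6 erythroid and platelet genes summed to 1173 to 3246 CPM in late OT-I, 1242 in marker-high library 3 and 28.4 to 722 elsewhere ex vivo. The 6 neutrophil genes summed to 2.99 to 18.2 CPM in naive, 94 to 361 in marker-high, 118 to 1619 in marker-low (highest in library 2), 79 to 531 in late OT-I and 0.918 to 383 in late SV40-I libraries, and their part in the results was not tested. All 4 of those lists summed to under 8 CPM in every cultured library. Many members are also expressed by such cells, and in bulk samples fewer cells of a type and less RNA per cell cannot be told apart.

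All 41 members passed the filter on low counts in each fit. Per kilobase of exon, the mean level over all 19 libraries was highest for the GTPase Igtp (315 CPM per kb), followed by the factor Irf1 (164), Ifi35 (140), the membrane protein Bst2, which tethers budding virions (130), and Irf7, which drives interferon genes (104). It was lowest for Ifi44 (0.12 CPM per kb) and the RNA sensor Ifih1 (0.36). The order of groups differed between the classes. Naive cells had the highest mean of 13 of the 35 type I members, late OT-I of 8, marker-high of 6 and cultured TOX-GFP of 6, whereas cultured GFP had the highest mean of 3 of the 6 type II members. Late SV40-I cells had the highest mean of none of the 41 members and the lowest mean of 5 of the 6 type II and 7 of the 35 type I members. Of the type I members, marker-low cells had the lowest mean of 11, cultured TOX-GFP of 10 and cultured GFP of 7.

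**Figure D1:**
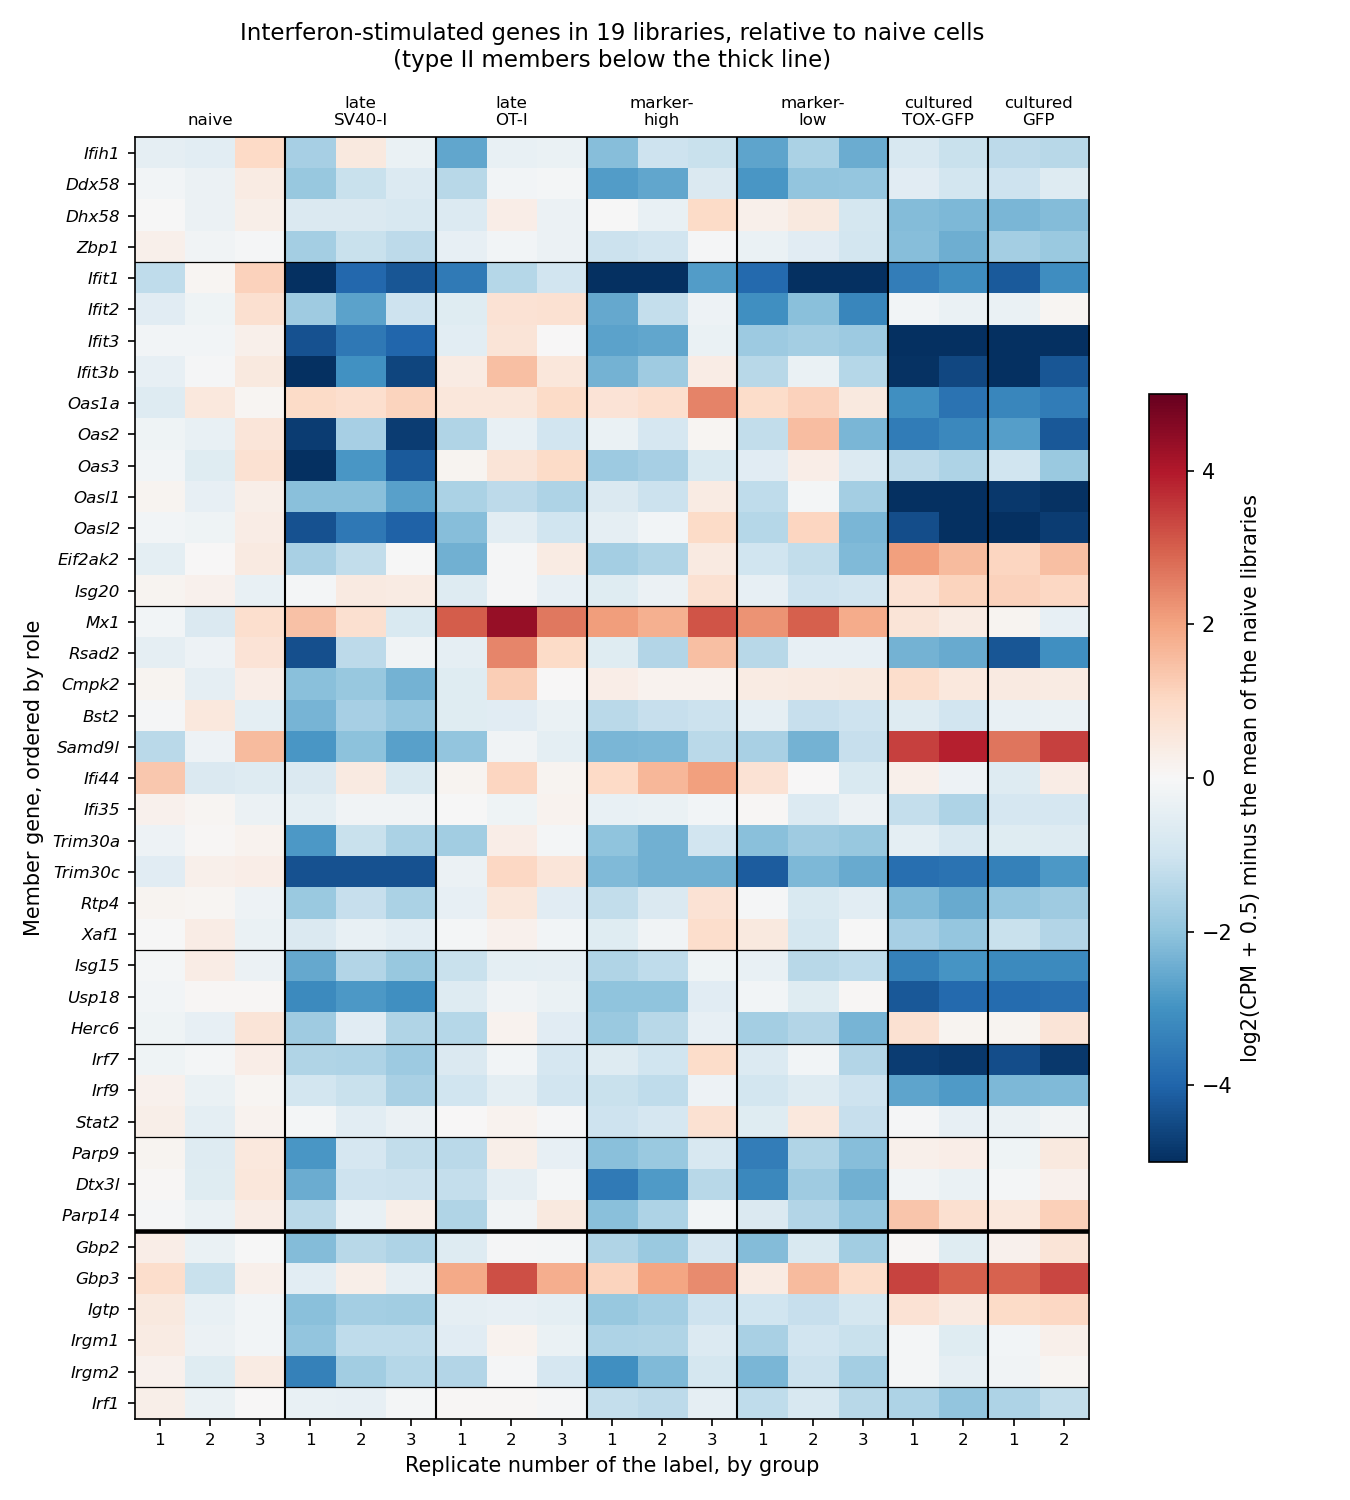
Level of each of the 41 members (rows, by role) in each of the 19 libraries (columns, by group), as log2(CPM + 0.5) minus the mean of the 3 naive libraries. Colour beyond a difference of 5 is saturated. Late SV40-I columns are blue in most rows, late OT-I columns are near 0 in most rows, and the cultured columns split between type I rows, many of them deep blue, and the GTPase rows, which are near 0 or red.

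The main comparison at days 20 to 21 set SV40-I against OT-I cells from lesions, that is, cells of 2 receptors in the same kind of tissue. In late SV40-I cells 14 of the 41 members were lower and 0 were higher (edgeR quasi-likelihood test, adjusted p under 0.05 over 16404 genes), 10 of the 35 type I and 4 of the 6 type II members. Over all genes tested, 4.11% were called lower and 4.91% higher. The median log2 fold change was -1.23 over the members, with Trim30c at its bound or not, against -0.04 over all genes, and 38 of the 41 folds were below 0. Of the 40 members with a mean of at least 1 CPM, 26 had all 3 late SV40-I libraries below all 3 late OT-I libraries, against 17.3% of all genes with that mean.

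Of the 11 effectors that act on RNA, 4 were lower. Ifit3 (chr19:34583531-34588731), of the family that binds foreign RNA ends, stood at 8.61, 15.3 and 11.4 CPM in the late SV40-I libraries and at 128, 288 and 191 CPM in the late OT-I libraries. The ranges are far apart, and the log2 fold change was -4.03 ± 0.58 (SE, edgeR adjusted p = 0.000791). Its neighbour Ifit3b fell from 26.8, 58.2 and 30.1 CPM in late OT-I to 0.0706, 2.01 and 0.351 CPM (log2 fold change -5.49 ± 1.07, edgeR adjusted p = 0.00599). The Ifit3 and Ifit3b copies are similar, so reads may have been divided between them. Oas3 (chr5:120753098-120777661), which makes the 2-5A signal that activates RNase L, stood at 3.58, 17 and 6.75 CPM against 145, 206 and 257 CPM. All 3 late SV40-I libraries were low for Oas3 (log2 fold change -4.43 ± 0.59, edgeR adjusted p = 0.000503). The related Oasl2 was also lower (-2.95 ± 0.75, edgeR adjusted p = 0.0266). Ifit1 and Ifit2 stood at means of 2.08 and 4.97 CPM against 17.4 and 22.7 CPM with ranges apart, but did not pass the test (edgeR adjusted p = 0.302 and 0.0834). Oas1a, at 108 ± 11.1 against 89.8 ± 14.6 CPM, and the exonuclease Isg20, at 59.4 ± 11.6 against 38.3 ± 8.29 CPM (SD, n = 3 each), had folds above 0 and were not called.

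Of the other antiviral effectors, 4 of 11 were lower. Trim30c (chr7:104382065-104400837), one of the Trim30 cluster, had no count in any late SV40-I library and 7.83, 20.5 and 15.1 CPM in late OT-I, at least 685-fold lower when the group's floor is set at 3 counts in total (edgeR adjusted p = 0.000341). Reads of the near-identical Trim30 copies may be divided between them, and Trim30a itself was present in late SV40-I at 7.04, 25.1 and 17.8 CPM. Mx1, a gene of the GTPase family, stood at 8.69, 5.28 and 1.47 CPM against 27.1, 68.5 and 20.5 CPM (log2 fold change -2.81 ± 0.71, edgeR adjusted p = 0.0252). Cmpk2, a mitochondrial nucleotide kinase, stood at 1.62, 1.94 and 1.24 CPM against 5.39, 20.8 and 8.48 CPM (-2.75 ± 0.43, edgeR adjusted p = 0.00138). Both genes had every late SV40-I library below every late OT-I library. Bst2 was lower as well (48.8 ± 11.2 against 135 ± 15.5 CPM, SD, n = 3 each, log2 fold change -1.41 ± 0.29, edgeR adjusted p = 0.00732). Rsad2 (viperin), which makes a chain-terminating nucleotide, ranged within late SV40-I from 0.188 to 12.3 CPM, overlapped the late OT-I range and was not called.

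In the ISG15 pathway, which attaches the ubiquitin-like protein ISG15 to other proteins, Usp18 carried the difference. Usp18 (chr6:121245906-121270917), the protease that removes ISG15 and also restrains the type I receptor, stood at 28.8, 35.5 and 31.1 CPM in late SV40-I and at 171, 233 and 210 CPM in late OT-I. The 3 late SV40-I values lie close together and far under the others (log2 fold change -2.62 ± 0.35, edgeR adjusted p = 0.000505). Isg15 itself stood at 9.98, 21.9 and 15.8 CPM against 27.7, 43.9 and 44 CPM, with ranges apart but no call (-1.22 ± 0.42, edgeR adjusted p = 0.0955). Among the sensors, Zbp1, which recognises Z-form nucleic acid, was lower (-1.02 ± 0.27, edgeR adjusted p = 0.0329), while Ifih1, Ddx58 and Dhx58 were not called. None of the 3 transcription factors passed: Irf7 stood at 218 ± 24.3 against 460 ± 126 CPM (edgeR adjusted p = 0.199), Irf9 at 285 ± 69.0 against 374 ± 74.9 CPM and Stat2 at 81.1 ± 12.2 against 104 ± 8.98 CPM (SD, n = 3 each). None of the 3 ADP-ribosylation genes Parp9, Dtx3l and Parp14 passed either. Exons of Parp9 and Dtx3l share 458 bases, and counting did not use strand, so their values are not independent.

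Among type II members, 4 of the 5 GTPases were called lower and the factor Irf1 was not. Igtp (chr11:58199556-58207591), which acts on vacuoles of intracellular pathogens, stood at 181, 236 and 230 CPM in late SV40-I and at 567, 578 and 549 CPM in late OT-I. Both groups are tight and apart (log2 fold change -1.33 ± 0.25, edgeR adjusted p = 0.00452). Gbp2, a guanylate-binding protein, stood at 46.4, 78.7 and 71.8 CPM against 135, 199 and 196 CPM (-1.36 ± 0.36, edgeR adjusted p = 0.0331). Gbp3 stood at 4.78, 8.78 and 5.1 CPM against 27.5, 69.9 and 26 CPM (-2.64 ± 0.57, edgeR adjusted p = 0.0111). Irgm1, a regulator of the other GTPases, was lower by less (110 ± 27.8 against 262 ± 70.2 CPM, SD, n = 3 each, -1.18 ± 0.29, edgeR adjusted p = 0.0231), and Irgm2, which shares 162 exon bases with Igtp, was not called (edgeR adjusted p = 0.243). Irf1 stood at 753, 725 and 897 CPM against 996, 995 and 925 CPM, a log2 difference of -0.23 ± 0.24 that did not pass (edgeR adjusted p = 0.657).

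The call of 8 of the 14 members held in all alternatives of processing, covariates and omitted libraries, namely Trim30c, Ifit3b, Oas3, Ifit3, Cmpk2, Usp18, Bst2 and Igtp. Gbp2 and Oasl2 were each lost in 8 of 16 alternatives, Mx1 in 7, Irgm1 in 5 and Gbp3 in 4. The Gbp2 call was lost without any single library of the groups compared. Without late OT-I library 2, which had the most erythroid transcripts and the highest level of 28 of the 41 members in its group, 8 members were called. Without late SV40-I library 1 or library 3, 9 were called, and with the erythroid and platelet sum as a covariate 8 were lower and 1 higher. The part of those transcripts in the result was not tested beyond this. Of the 11 called members with a promoter window, 8 held an ISRE core, as did 10 of the 22 others with a window.

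**Figure D2:**
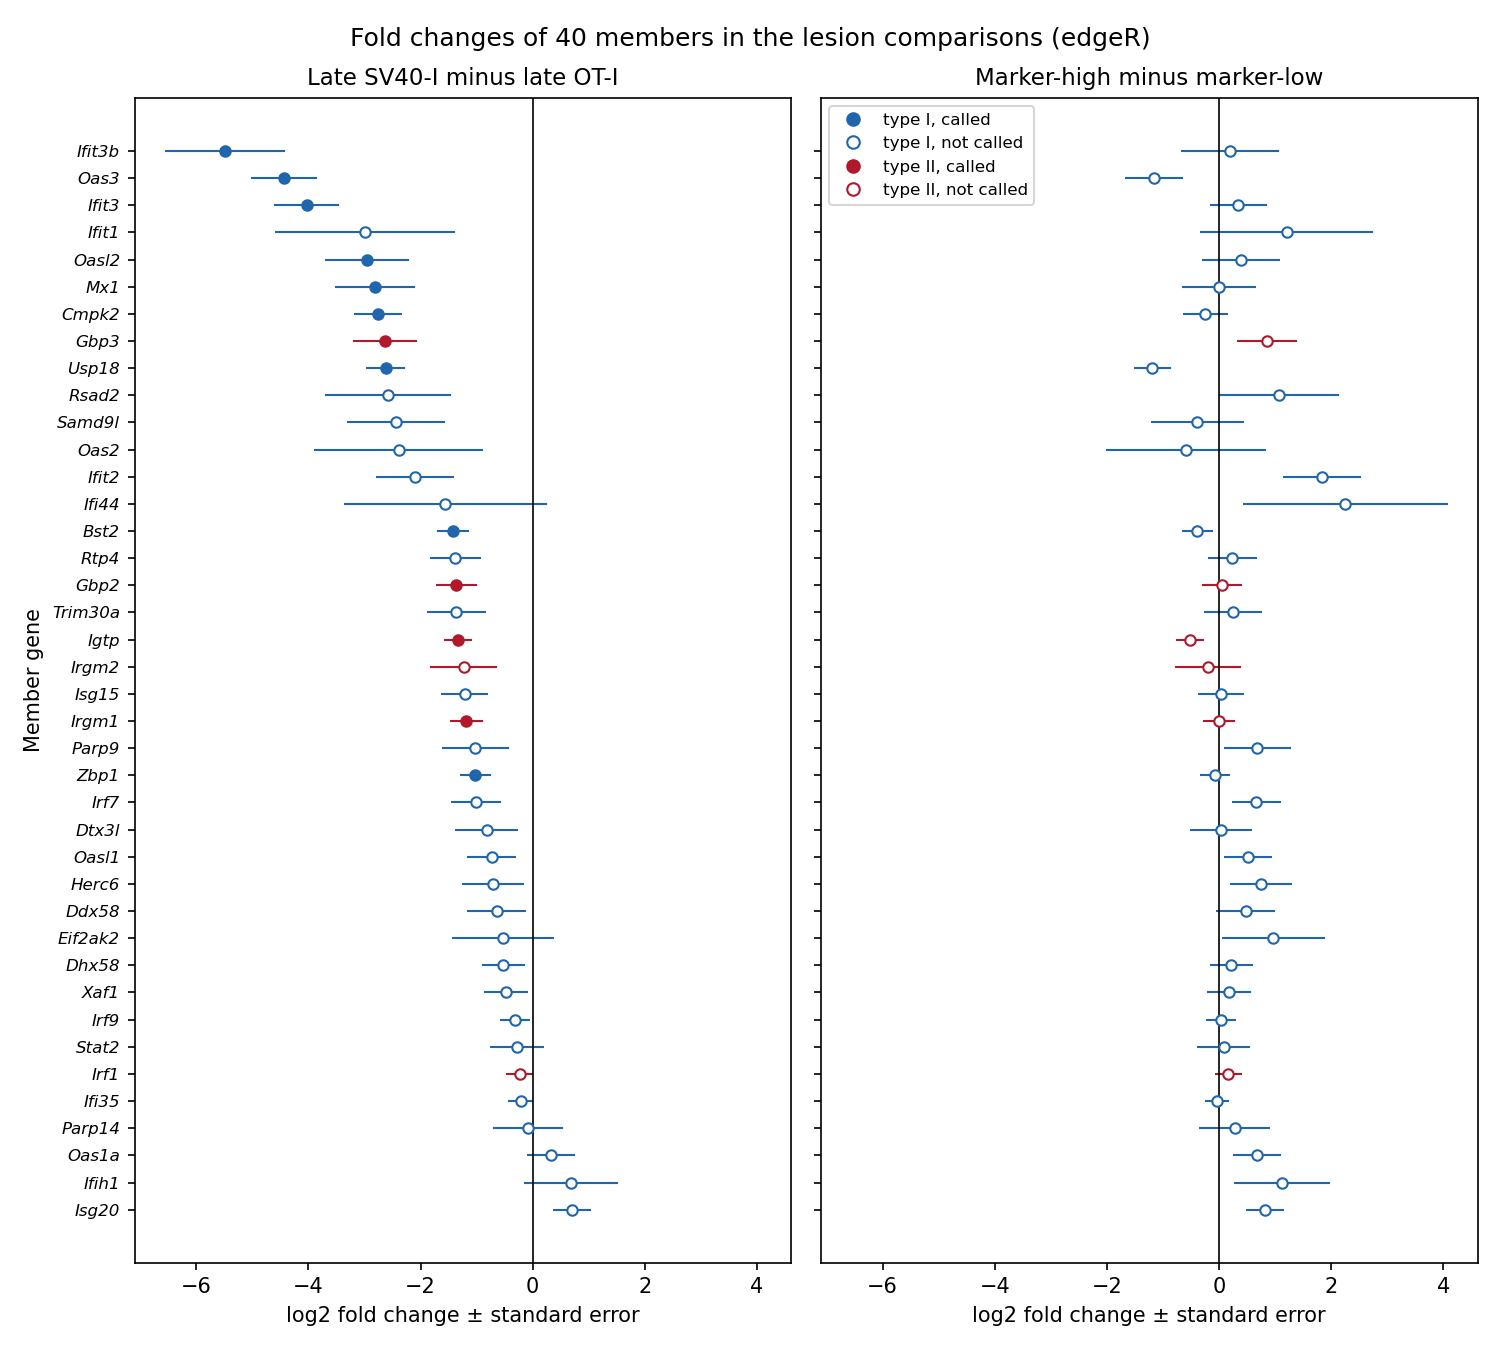
Log2 fold changes with standard errors for 40 members (Trim30c, at 0 in one group, is left out) in late SV40-I minus late OT-I (left) and marker-high minus marker-low (right), with the same gene order in both. Filled points passed an adjusted p of 0.05: 13 of those on the left and 0 on the right.

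Against naive SV40-I cells, late SV40-I cells had 20 members lower and 0 higher, 16 type I and 4 type II, where 6.86% of all genes were called lower and 11.1% higher. This comparison and the previous one share the late SV40-I libraries. The median log2 fold change was -1.44 over the members and 0.05 over all genes. Usp18, at 243, 274 and 279 CPM in the naive libraries, had the smallest adjusted p (log2 fold change -2.98 ± 0.35, edgeR adjusted p = 9.63e-05), and all late SV40-I values given above lie under that range. Ifit3, at 169, 169 and 224 CPM in naive cells, had a log2 fold change of -3.92 ± 0.57 (edgeR adjusted p = 0.000425). Members that passed here and not against OT-I cells were Samd9l, an antiviral restriction factor (-3.76 ± 0.92), Oasl1 (-2.24 ± 0.45), Irgm2 (-1.97 ± 0.60), Isg15 (-1.90 ± 0.42), Trim30a (-1.66 ± 0.53), Irf7 (-1.55 ± 0.45), Rtp4 (-1.45 ± 0.45) and Irf9 (-1.12 ± 0.27). Of these 8 calls only those of Isg15 and Oasl1 held in all 15 alternatives, and 14 of the 20 calls did. Irf7 was lost without any one of the 6 libraries compared (9 alternatives in all, adjusted p up to 0.0953), Rtp4 in 8, Irgm2 in 6, Trim30a in 5, Samd9l in 3 and Irf9 in 2. Whether these folds differ between the comparisons was not tested. Irf7, which amplifies interferon production, stood at 573, 615 and 840 CPM in naive and 236, 227 and 190 CPM in late SV40-I libraries. By role, 1 of 4 sensors, 5 of 11 RNA effectors, 6 of 11 other antiviral effectors, 2 of 3 ISG15 pathway genes, 2 of 3 factors and 4 of 5 type II GTPases were lower, and Irf1 and the 3 ADP-ribosylation genes were not called.

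Late OT-I cells had 2 members higher than naive cells and 0 lower, where 5.06% and 2.29% of all genes were called higher and lower. The share called higher is close to that of all genes. These 2 were Mx1, at 27.1, 68.5 and 20.5 CPM against 2.54, 1.56 and 5.52 CPM (log2 fold change 3.59 ± 0.73, edgeR adjusted p = 0.00868), and Gbp3, at 27.5, 69.9 and 26 CPM against 13.3, 3.05 and 8.45 CPM (2.30 ± 0.56, edgeR adjusted p = 0.0245). Neither call held in all alternatives: 1 member was called without late OT-I library 2 or without naive library 2 or 3, and 0 with the hepatocyte sum as a covariate. Both were also lost with the erythroid and platelet sum as a covariate (edgeR adjusted p = 0.192 for Mx1 and 0.627 for Gbp3), where 2 other members, Igtp and Irgm1, were called lower. That sum was 1173 to 3246 CPM in late OT-I and 28.4 to 272 CPM in naive cells. The median log2 fold change over the members was -0.27, against 0.04 over all genes. Of the 41 folds 27 were below 0. Every late OT-I library lay below every naive library for 7 members and above for 3. The share of all genes with such ranges was not worked out, so these counts show no shift of the members. Oasl1 had the smallest p of those with folds below 0, at 30.3 ± 3.11 against 87.3 ± 20.3 CPM (SD, n = 3 each, -1.51 ± 0.44, edgeR adjusted p = 0.0563).

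**Figure D3:**
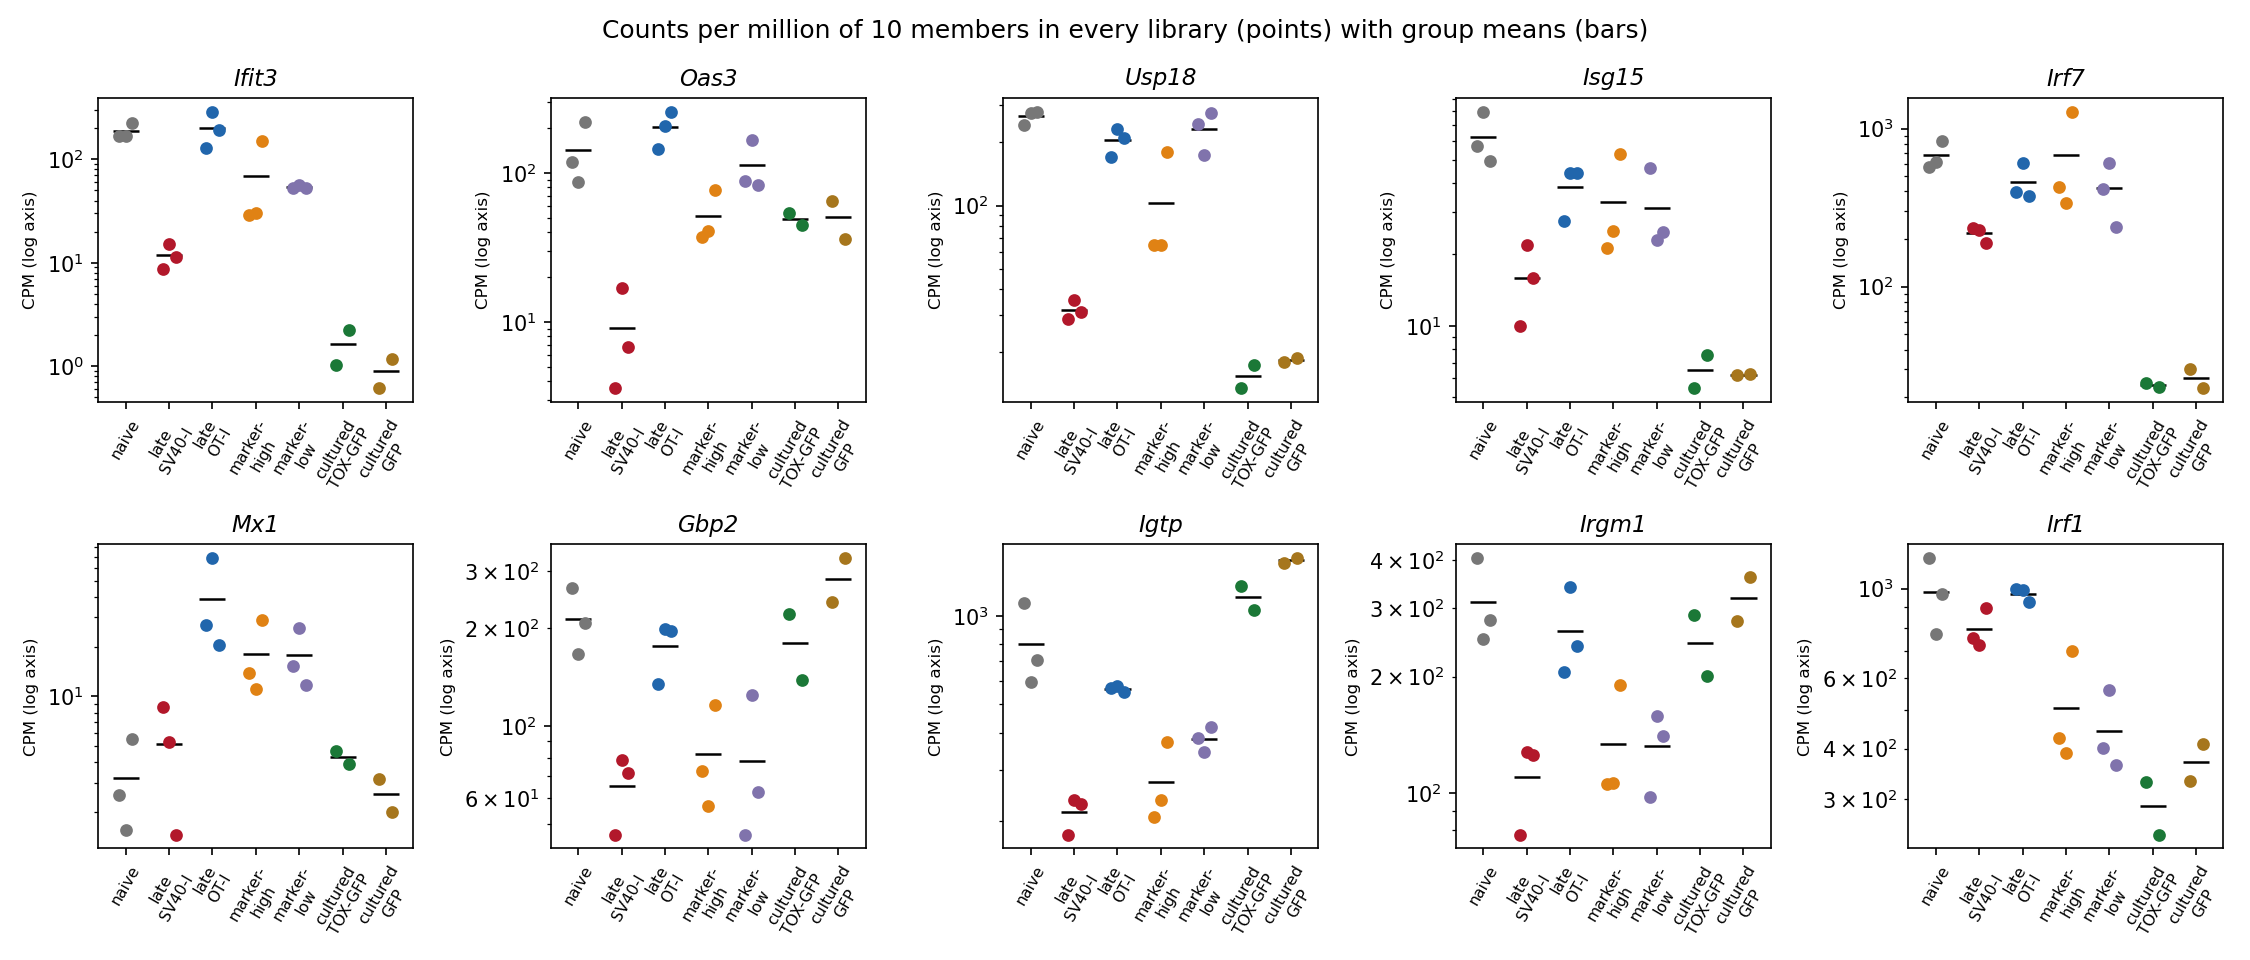
CPM on a log axis of 10 members in every library (points) with group means (bars), for the 7 groups. Ifit3, Oas3 and Usp18 show late SV40-I libraries under all other ex vivo libraries, Isg15 and Irf7 are lowest in culture, and Gbp2, Igtp and Irgm1 in cultured GFP cells lie within or above the naive range.

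At days 8 to 9 the lesion cells that were high or low for PD1, LAG3 and CD39 were compared by gate. No member passed the test: 0 of 41 were called in either direction by edgeR, 4 had an unadjusted p under 0.05 (11.25% of all genes did), and DESeq2 called 1. Over all genes, 0.475% were called higher and 0.719% lower. The member with the smallest p was Usp18, at 64.8, 65.0 and 179 CPM in marker-high and 244, 174 and 275 CPM in marker-low (log2 fold change -1.19 ± 0.33, edgeR adjusted p = 0.133). Marker-high library 3 reaches the marker-low range, and without it Usp18 was called (log2 fold change -1.86). DESeq2 called Usp18 with all libraries kept. Oas3 had all 3 marker-high libraries, at 37.1, 40.8 and 76.4 CPM, below the marker-low libraries at 88.5, 166 and 82.5 CPM (-1.15 ± 0.52, edgeR adjusted p = 0.421). Standard errors of these folds ran from 0.22 for Ifi35 to 1.83 for Ifi44, so a difference of 1 on the log2 scale was within the error for the least expressed members.

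Both early groups were set against naive cells. Marker-high cells had 12 members lower and 3 higher (9.1% and 14.3% of all genes), and marker-low cells had 14 lower and 1 higher (6.21% and 10.6% of all genes). These 2 comparisons share the naive libraries. In marker-high cells all 6 type II members passed, although Gbp3 was lost when same-numbered libraries were paired and in 6 other alternatives (adjusted p up to 0.534): Igtp (log2 fold change -1.53 ± 0.25), Irgm2 (-1.81 ± 0.60), Gbp2 (-1.35 ± 0.36), Irgm1 (-1.19 ± 0.29) and Irf1 (-0.92 ± 0.24) were lower and Gbp3 (1.80 ± 0.55) was higher. Igtp stood at 208, 236 and 373 CPM against 1101, 596 and 708 CPM in naive cells (edgeR adjusted p = 0.0009), and Irf1 at 426, 390 and 701 CPM against 1192, 772 and 972 CPM (edgeR adjusted p = 0.016). Of the type I members, Mx1 (2.53 ± 0.70) and Oas1a (1.54 ± 0.44) were higher, and Samd9l, Trim30c, Dtx3l, Ddx58, Trim30a, Usp18 and Bst2 were lower. The higher calls of Mx1, Oas1a and Gbp3 were each lost without marker-high library 3. Each was also lost with the macrophage and Kupffer sum as a covariate. The 1 member higher in marker-low cells was Mx1 (log2 fold change 2.54), lost in 6 of 13 alternatives, that covariate included. In marker-low cells the sensors Ifih1 (-2.86 ± 0.90) and Ddx58 (-2.21 ± 0.55) and the effectors Ifit1 (-5.81 ± 1.83), Ifit2 (-3.02 ± 0.72) and Ifit3 (-1.74 ± 0.52) were lower. Ifit1 varied widely, at 22.4, 58.3 and 123 CPM in naive cells, 3.17, 0.0642 and 0.104 CPM in marker-low and 0, 0.614 and 7.52 CPM in marker-high.

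Calls against naive cells at days 8 to 9 changed with single libraries. Without each marker-high or naive library in turn, between 4 and 17 members were called for marker-high cells (4 without marker-high library 2, 6 without library 1, and 7, 9 and 8 without naive libraries 1, 2 and 3). For marker-low cells the range was 5 to 13 (5 without marker-low library 1, 6 without library 3, and 5, 9 and 5 without naive libraries 1, 2 and 3). With the macrophage and Kupffer sum as a covariate, added after the data were seen, 7 members were called in each, 5 and 7 of them among the 15. The folds of all 15 kept their sign in each, and 11 of 15 in marker-high and 15 of 15 in marker-low cells were larger in size with the covariate. The median standard error rose from 0.53 to 0.83 and from 0.57 to 0.82. Only 1 of the 15 calls held in every alternative in each comparison. All 8 genes of the macrophage list were detected in the marker-high libraries, Lyz2 at 3060 to 3750 CPM and Csf1r at 519 to 1001 CPM.

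Late SV40-I cells were also compared with the marker-high cells of days 8 to 9, which carry the same receptor. The labels of the late cells name no PD1, LAG3 or CD39 gate, so time and gate cannot be told apart in this comparison. There 9 members were lower and 0 higher (3.57% and 1.76% of all genes), 8 type I members and Gbp3. The type I members were Trim30c (at least 74.5-fold lower), Oasl2 (log2 fold change -4.33 ± 0.80), Ifit3b (-3.82 ± 1.00), Cmpk2 (-2.62 ± 0.43), Ifit3 (-2.53 ± 0.54), Oas3 (-2.47 ± 0.54), Oasl1 (-1.93 ± 0.44) and Usp18 (-1.65 ± 0.34). Oasl2 stood at 56.5, 69.8 and 151 CPM in marker-high and 3.27, 5.92 and 4.19 CPM in late SV40-I libraries. The type II members Igtp, Gbp2, Irgm1 and Irgm2 had folds between -0.29 and -0.16 and were not called, and Irf1 was 0.70 ± 0.24 higher without a call (edgeR adjusted p = 0.117). Without late SV40-I library 1 or 3, 3 members were called, with only these 2 groups fitted 3, and with the macrophage covariate 0. With that covariate all 9 folds stayed below 0, 8 of them smaller in size, and the median standard error rose from 0.54 to 0.71. The macrophage sum was 3982 to 5757 CPM in marker-high and 53.4 to 1056 CPM in late SV40-I cells.

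Whether the SV40-I minus OT-I difference of days 20 to 21 exceeded the marker-high minus marker-low difference of days 8 to 9 was tested as a difference of differences. All 41 folds were below 0, with a median of -1.43 against 0.01 over all genes, and 2 members passed (0.402% of all genes were called lower and 0.628% higher). The members that passed were Ifit3 (-4.37 ± 0.75, edgeR adjusted p = 0.0139) and Trim30c. In Ifit3 the early groups overlapped, at 29.0, 30.5 and 149 CPM in marker-high and 52.4, 56.4 and 52.6 CPM in marker-low. DESeq2 called 8 members, a stricter filter on low counts 6 and the fit without late SV40-I library 2 called 5, all lower. Type II members had folds from -3.50 for Gbp3 to -0.40 for Irf1 and 0 of 6 passed.

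In culture the share of members called lower differed between the classes, which were not tested against each other. Cultured GFP cells, set against naive cells in a fit of all 19 libraries, had 17 of the 35 type I members lower and 1 higher, and of the 6 type II members 1 lower and 1 higher, where 15% of all genes were called lower and 17.6% higher. Ifit3 fell furthest, to 0.609 and 1.18 CPM from 169, 169 and 224 CPM in naive cells (log2 fold change -8.08 ± 0.86, edgeR adjusted p = 7.12e-06). Irf7 stood at 30 and 22.7 CPM (-5.05 ± 0.58, edgeR adjusted p = 1.33e-05), Usp18 at 18.0 and 18.7 CPM (-4.23 ± 0.43, edgeR adjusted p = 4.92e-06) and Isg15 at 6.20 and 6.26 CPM (-3.70 ± 0.52, edgeR adjusted p = 6.71e-05). All lay under every ex vivo library. Samd9l went the other way, at 38.3 and 64.7 CPM against 1.90, 4.56 and 17.7 CPM (2.34 ± 0.81, edgeR adjusted p = 0.037), a call lost in 5 of 11 alternatives: without naive library 1 or 2, without either GFP library and with only the groups compared (adjusted p up to 0.206). Of the 20 calls 15 held in all alternatives. A further 17 type I members were not called. Both GFP libraries lay below every naive library for 22 of the 35 type I members and above for 5, Samd9l included. The share of all genes with such ranges was not worked out. Of the type II members Gbp3 was higher (2.66 ± 0.56) and Irf1 lower (333 and 410 CPM, -1.77 ± 0.28). Igtp, at 1514 and 1570 CPM, was above its highest naive library but not called (0.57 ± 0.26, edgeR adjusted p = 0.107). Culture, activation, IL-2 and transduction all separate these groups and cannot be told apart.

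**Figure D4:**
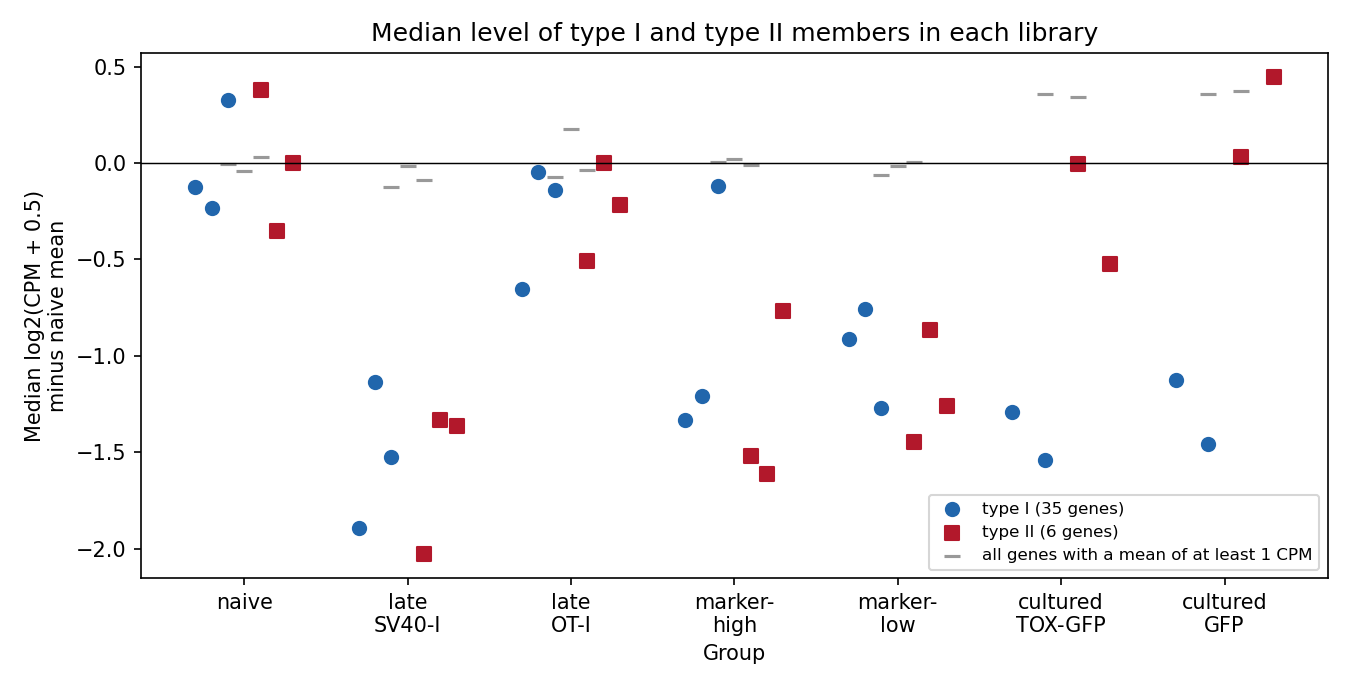
Median of log2(CPM + 0.5) minus the naive mean over the 35 type I members (circles), the 6 type II members (squares) and all genes with a mean of at least 1 CPM (dashes), for each library. In cultured libraries the type I median is between -1.54 and -1.12 and the type II median between -0.52 and 0.45, while in late SV40-I libraries both are between -2.03 and -1.14.

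TOX-GFP and GFP cells were compared to ask what TOX alone changes in activated cells. edgeR called 0 of the 41 members and 0.0% of all genes in each direction, while 8 members, and 1906 genes or 13.04% of all, had an unadjusted p under 0.05. Tox itself was thus not called, at 156 and 118 CPM in TOX-GFP and 13.8 and 21.4 CPM in GFP cells. DESeq2 called 2 members, both lower, and over all genes 142 lower and 418 higher. The 8 were Gbp2, Ifi35, Zbp1, Rtp4, Xaf1, Irf9, Bst2 and Igtp, and all had folds below 0. Irf9, a DNA-binding partner of STAT2, stood at 105 and 89.9 CPM in TOX-GFP and 137 and 139 CPM in GFP cells (log2 fold change -0.50 ± 0.13, edgeR adjusted p = 0.247). The members called by DESeq2 were Irf9 and Ifi35. Igtp stood at 1262 and 1047 CPM against 1514 and 1570 CPM (-0.42 ± 0.13, edgeR adjusted p = 0.292), with ranges apart but no call. Without GFP library 2, Samd9l, Rsad2 and Parp9 were called higher, but 1 GFP library then remained and the spread came from the 2 TOX-GFP libraries alone, so the lone library was assumed to vary like them. The difference between this TOX effect and the marker-high minus marker-low effect called 0 members (4 genes higher, 0.0215%, and 1 lower, 0.00537%, of 18608), and 0 members had an unadjusted p under 0.05. DESeq2 also called 0 members there.

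The other genes of the pathway were followed in a list of 48, of which 47 were tested. The type I ligand Ifnb1 had 0 counts in all 19 libraries. Ifng, the type II ligand, was highest in marker-low cells at 506, 321 and 332 CPM, followed by marker-high at 114, 132 and 17 CPM, late OT-I at 49.8, 63.8 and 28.5 CPM and late SV40-I at 25.9, 31.7 and 21.7 CPM. It stood at 0.0388 to 0.0657 CPM in naive and 3.44 to 4.80 CPM in cultured libraries. Ifng was called higher than in naive cells in every group tested against them, and was not called between marker-high and marker-low (log2 fold change -2.19 ± 0.55, edgeR adjusted p = 0.0843). Marker-low cells had the most Ifng, and Gbp2, Irgm1, Igtp and Irf1 were lower there than in naive cells. Irgm2 was not called there, nor was Gbp3, at means of 15.2 CPM in marker-low and 8.26 CPM in naive cells. Whether Ifng and these levels are connected was not tested.

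In late SV40-I against late OT-I cells 8 of the 47 were lower and 1 was higher, against 4.11% and 4.91% of all genes. The receptor chain Ifngr1 stood at 382, 317 and 556 CPM against 1443, 1647 and 1184 CPM (log2 fold change -1.70 ± 0.26, edgeR adjusted p = 0.0013), and 1 of 4 receptors and 1 of 4 kinases passed. The kinase was Jak1, shared by both receptors (-1.40 ± 0.38, edgeR adjusted p = 0.0377). Of 14 further type II targets 3 were lower, namely Tgtp1 (-3.71 ± 0.76), Tgtp2 (-2.36 ± 0.49), which are near-identical copies, and Ifi47 (-0.78 ± 0.21). Of 13 further type I targets 3 were lower, namely Slfn5 (-4.99 ± 1.17), Sp100 (-2.01 ± 0.34) and Phf11b (-1.52 ± 0.24). The factor Irf8 was higher (2.70 ± 0.55, edgeR adjusted p = 0.00751). Between marker-high and marker-low cells and between TOX-GFP and GFP cells 0 of the 47 were called, with 4 and 10 at an unadjusted p under 0.05. Cultured GFP cells had 10 higher than naive cells, near the 17.6% of all genes, and 17 lower, against 15% of all genes: 10 of the 13 further type I targets were lower, while Gbp4, Gbp6 and Gbp7 were higher, and the inhibitor Socs1, which blocks JAK kinases, stood at 302 and 351 CPM against 2.2 to 4.08 CPM (6.38 ± 0.43, edgeR adjusted p = 1.89e-07). Of the 14 further type II targets, 3 were called higher and 2 lower, and 9 had folds below 0.

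Libraries of 1 group also differed, and members moved together within groups. In marker-high cells library 3 was the highest of the 3 for 38 of the 41 members (92.7%), against 40.75% of all genes with a mean of at least 1 CPM in the series. Irf7 stood at 430, 338 and 1276 CPM, Oas1a at 88.4, 97.4 and 303 CPM and Stat2 at 48.3, 55.7 and 171 CPM in those libraries. The same library had 1242 CPM of erythroid and platelet transcripts against 101 and 118 CPM in the others, and the lowest Ifng (17 CPM). The part of those transcripts was not tested. In late OT-I cells library 1 was lowest for 30 members (73.2%, against 40.3% of all genes) and library 2 highest for 28 (68.3%, against 47.2%). In late SV40-I cells library 1 was lowest for 29 of the 40 members detected in the group (72.5%, against 46.9% of all genes). In naive cells the classes split: library 3 was highest for 24 of 35 type I members (40.02% of all genes), and library 1 for 5 of 6 type II members (27.55% of all genes). In culture both classes leaned the same way. Library 1 of the TOX-GFP group was the higher for all 6 type II and 25 of 35 type I members (49.29% of all genes). Library 2 of the GFP group was the higher for all 6 type II and 23 of 35 type I members (51.68% of all genes).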

How the data were processed

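Each deposited table gives the count of read pairs per gene name as a whole number, made by the authors with featureCounts 1.6.2 on GENCODE M17 annotation, per the file headers. STAR, FastQC, DESeq2 and the GRCm38 build are named without versions in the submitters' processing notes. No strand option is shown, so genes that overlap on opposite strands (Parp9 and Dtx3l) are uncertain. Near-identical or same-strand overlapping genes (Ifit3 and Ifit3b, the Trim30, Oas1 and Gbp families, Igtp and Irgm2) are uncertain with or without strand.

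CPM was computed here from library totals. Tests used edgeR 4.0.16 in R 4.3.3 (TMM, filterByExpr, robust quasi-likelihood, Benjamini-Hochberg adjustment over all genes, calls at 0.05), with 15 ex vivo libraries in one fit (16404 genes), 4 cultured in another (14614) and all 19 (18608) where both enter. Standard errors were worked back from the F statistic. On simulated counts for late SV40-I against OT-I, 4% of 2-fold and 41% of 4-fold changes were recovered. For TOX-GFP against GFP (14614 genes) the shares were 55% and 81%. In both cases the changes were put only into well-counted genes, 100 at each fold. The real fits called 1479 genes for late SV40-I against OT-I and 0 for TOX-GFP against GFP. The adjusted p depends on how many genes change, so neither pair of shares shows what its real fit could detect. Members and lists were chosen with earlier results of these data known. The named genes were members described by role, with those called or of smallest p. Alternatives were other size factors (RLE), other filters, DESeq2 1.42.0, replicate blocks, fits of fewer groups, marker covariates and omitted libraries. Same-numbered marker-high and naive libraries deviated together (correlation 0.1445, 0.2059 and 0.2378 over 11853 genes), which by the rule used counts as pairing. These are the numbers of the labels, which name no shared animal or batch. By the numbers in the headings, the libraries numbered 2 and 3 correlated at 0.0781 and -0.124. With the block by label number, 17 members were called for marker-high against naive in place of 15.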

Additional observations from a re-analysis of the deposited data

Results flagged for a closer look

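The effect at days 20 to 21 (late SV40-I minus late OT-I) and the effect at days 8 to 9 (marker-high minus marker-low) differed in the test of the difference itself for Ifit3 and Trim30c. For Ifit3 the difference was -4.37 on the log2 scale (edgeR adjusted p = 0.0139, and 7.35e-07 to 0.0471 over the alternatives). For Trim30c the fitted difference was -12.88 (edgeR adjusted p = 0.00279), a value that depends on the prior count because the late SV40-I libraries hold 0 counts.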

How the results depend on the processing

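No member called in a main fit was called in the opposite direction in an alternative. The direction of the calls did change for late OT-I against naive with the erythroid and platelet covariate. There 2 members were called higher without it, and 2 others, Igtp and Irgm1, lower with it. For late SV40-I against late OT-I the same covariate gave 1 higher call, where the main fit had 0. Members called without each library in turn ranged from 8 to 12 for late SV40-I against late OT-I (14 with all), 0 to 1 for marker-high against marker-low (0), 0 to 3 for TOX-GFP against GFP (0), 1 to 2 for late OT-I against naive (2), 4 to 17 for marker-high against naive (15), 5 to 13 for marker-low against naive (15), 3 to 8 for late SV40-I against marker-high (9) and 2 to 5 for the difference between the late and early effects (2). With DESeq2 the counts were 1 for marker-high against marker-low, 2 for TOX-GFP against GFP, 4 for late OT-I against naive and 8 for the difference of effects, where a stricter filter gave 6. With only the groups compared they were 4 for late OT-I against naive and 3 for late SV40-I against marker-high. Covariates gave 9 for late SV40-I against late OT-I (erythroid and platelet), 0 for late OT-I against naive (hepatocyte; with the erythroid and platelet sum 2, neither of them among the 2 called without it), and 7, 7 and 0 for marker-high and marker-low against naive and late SV40-I against marker-high (macrophage, added after the data were seen). The replicate block gave 1 for late OT-I against naive and 13 for late SV40-I against late OT-I. It moved no other count by over 1.5 times. Of the same-numbered cultured libraries each pair correlated at 0.1474. Other size factors moved no count by over 1.5 times. Late SV40-I and cultured GFP against naive stayed within 1.5 times of 20 in every alternative, with 14 and 15 of the 20 calls kept in all. Leaving out a cultured library leaves 1 in its group, assumed to vary like the others in the fit. Beyond the alternatives' own construction the cause was not tested. With 2 or 3 libraries a group, small changes in the weakly expressed members Ifi44 and Ifih1 were not detectable.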
